A study of Raphidocelis subcapitata with 45 samples.

Results

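In the freshwater green alga Raphidocelis subcapitata, 105 of 7291 measured genes kept their mean level near that of the solvent control at a nominal 784, 1960 and 4900 µg/L sertraline. They fell at both higher concentrations. They were chosen from group means of the deposited log2 values. At 784, 1960 and 4900 µg/L the mean had to lie within 0.4 of the control mean (a factor of 1.32), and at 12249 and 30623 µg/L it had to be lower by at least 0.8 (a factor of 1.74). The values at these 5 concentrations therefore describe the choice and are given without a test. The concentrations of 50, 125 and 314 µg/L did not enter the choice. Single members lay outside 0.4 there, with differences from -0.55 to 0.46 at 125 µg/L and down to -0.46 at 314 µg/L.

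Raphidocelis subcapitata is a unicellular alga that is widely used in toxicity testing because it grows quickly in defined medium. Sertraline is an antidepressant that blocks serotonin reuptake in animals. It is a hydrophobic amine, positively charged at neutral pH, and compounds of that kind partition into membranes.

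Cells labelled as a Carolina Biological genotype, in exponential growth under constant light, were exposed for 24 h to sertraline hydrochloride or to solvent alone, in 5 wells per plate for each concentration. Homogenates of 3 plates were pooled before RNA extraction. The control had 5 libraries, as did each of 50, 125, 314, 784, 1960 and 4900 µg/L. The groups at 12249 and 30623 µg/L had 3 each, libraries A, B and C at 12249 and A, C and D at 30623 µg/L. All groups shared the strain, the medium and the solvent, whose content the labels and the design text state differently, so none is given. The labels name no separate cultures, so the spread between libraries may be technical. Libraries were made from the 3′ ends of polyadenylated transcripts, and read depth is unknown because the table holds normalised log2 values only. Each value is relative to the rest of its library, so the amount of RNA per culture is not measured, and a lower level in every cell and a loss from some of the cells cannot be told apart. The table pairs no identifier with a product name, so no function is given to any of these genes, and the text names only the 2 that fell most.

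Library C at 12249 µg/L and the spread of the 4900 µg/L libraries bear on the whole set. Without library C at 12249 µg/L the rule found 58 genes, 52 of them among the 105. Without libraries D and E at 4900 µg/L together, a choice made after their values were seen, it found 149 genes, 99 of them among the 105. Leaving out any other single library gave between 78 genes (without A at 4900) and 143 genes (without A at 12249 µg/L).

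Of the 7291 genes, 3052 (41.9%) stayed within 0.4 of the control at 784, 1960 and 4900 µg/L. Of those 3052, 180 were lower by at least 0.8 at 12249 µg/L and 389 at 30623 µg/L, and the 105 met both limits. They made up 3.44% of the 3052 genes. The mirror rule, with rises of at least 0.8 at both top concentrations, found 94 genes. Counted from the other end, 770 genes were lower by at least 0.8 at both top concentrations. The 105 were 13.6% of these. Another 204 had left the limit at 4900 µg/L alone, and 461 had left it at 784 or 1960 µg/L. Most genes that were low at the top of the series had thus left the limit at a lower concentration than the 105.

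The limits cut through a continuous range of values. At 12249 µg/L the member nearest the limit stood at -0.82 and the nearest gene that missed only this limit at -0.80. There were 32 genes within 0.1 on either side of this limit. At 30623 µg/L the values were -0.82 inside and -0.79 outside, with 15 genes within 0.1 inside and 10 outside. At 4900 µg/L the member nearest the limit stood at -0.398 and the nearest gene outside at -0.401, with 37 genes within 0.1 inside and 40 outside. At 784 and 1960 µg/L fewer genes lay close to the limit, 13 and 17 inside and 6 and 9 outside.

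As a set, the 105 genes moved little between the control and 1960 µg/L. Their median log2 difference from the control was -0.03 at each of 50, 125 and 314 µg/L, 0.01 at 784 µg/L and -0.02 at 1960 µg/L. At 784 µg/L 48 of them lay below the control mean and at 1960 µg/L 56 did, so that neither concentration favoured one direction. At 50, 125 and 314 µg/L 63, 62 and 62 did (60.0%, 59.0% and 59.0%), compared with 51.6%, 51.0% and 48.9% of all genes. The choice used the same control libraries and favours genes whose control values happen to be high, so nothing is read from this lean. The median at 4900 µg/L was -0.25, with quartiles -0.34 and -0.15, and 96 of the 105 were below the control mean although all were within the limit. Over all 7291 genes the median at 4900 µg/L was -0.02. The means at 4900 µg/L thus lay mostly on the low side of the permitted range, and the label of a fall that starts at 12249 µg/L holds for the limit and not for the control mean itself.

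**Figure D1:**
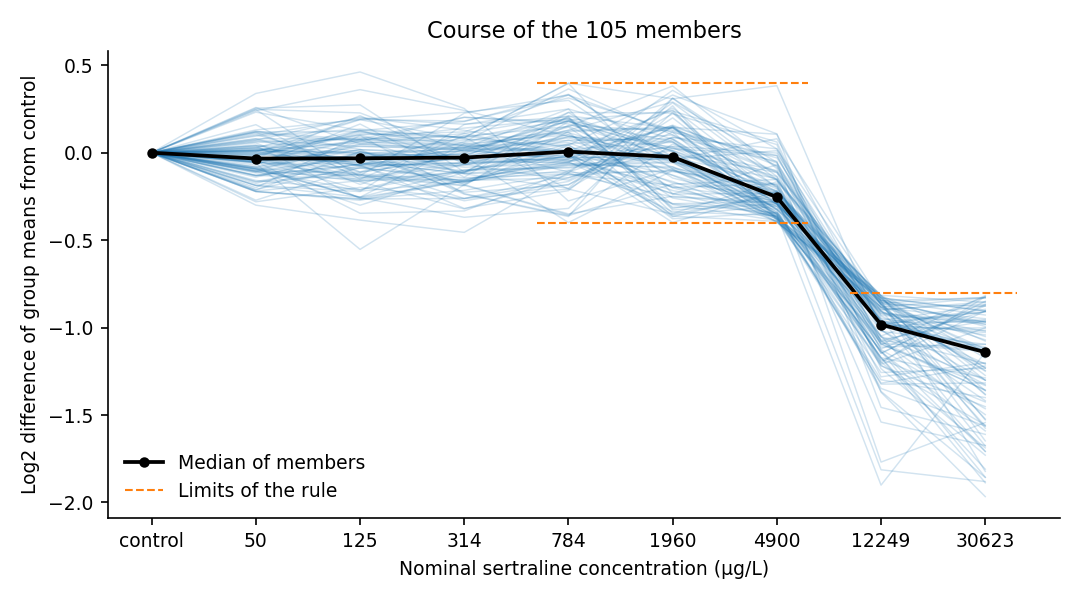
Group means of the 105 genes as log2 differences from the control mean (vertical axis) at each nominal concentration in µg/L (horizontal axis, evenly spaced steps). Thin lines are genes, the black line is their median and the dashed lines are the limits that chose them. The median is -0.02 at 1960, -0.25 at 4900, -0.98 at 12249 and -1.14 at 30623 µg/L.

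At 12249 µg/L the median difference was -0.98, a 1.98-fold lower level, with quartiles -1.14 and -0.88. At 30623 µg/L it was -1.14, a 2.2-fold lower level, with quartiles -1.43 and -0.97. The deepest fall was 3.73-fold at 12249 and 3.91-fold at 30623 µg/L. A log2 difference of -1 or lower was seen in 49 of the 105 genes at 12249 and in 73 at 30623 µg/L, and differences of -1.5 or lower in 4 and 23. All 7291 genes had medians of -0.05 and -0.01 at these concentrations.

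The levels of the 105 genes at 12249 and at 30623 µg/L were also set beside each other. Of the 105, 76 (72.4%) had a lower mean at 30623 than at 12249 µg/L, compared with 49.2% of all genes. The median step was -0.15 with quartiles -0.36 and 0.01. A further fall of at least 0.3 was seen in 33 genes, 70 changed by less than 0.3, and 2 were higher by at least 0.3. In 99 genes the 3 libraries at 12249 overlapped with the 3 at 30623 µg/L. In the other 6 all 30623 µg/L libraries were below all 12249 µg/L libraries, and in 0 were they all above. The counts by size of step and by overlap were not taken over all genes, so nothing is read from them about the 105. The step was not tested, because both means had been used to choose the genes. For the same reason nothing is read from the 72.4% of members with a lower mean against the 49.2% of all genes.

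The genes were not equally low in all libraries of the top groups. At 12249 µg/L the median over the 105 genes was -0.76 in library A, -0.91 in B and -1.36 in C. Library C was the lowest of the 3 for 74 of the 105 genes (70.5%), and for 34.0% of all genes. The medians at 30623 µg/L were -1.28 in A, -1.16 in C and -1.27 in D, so that the libraries differed by less than those at 12249 µg/L. Averaged over libraries, the median was -1.01 ± 0.31 (SD, n = 3) for 12249 µg/L. For 30623 µg/L it was -1.24 ± 0.06 (SD, n = 3). The ranges of the 2 groups overlapped, since library C at 12249 µg/L was below all 3 libraries at 30623 µg/L. The other 665 genes that were low at both concentrations differed less between libraries at 12249 µg/L, with medians of -1.31 in A, -1.36 in B and -1.45 in C.

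**Figure D2:**
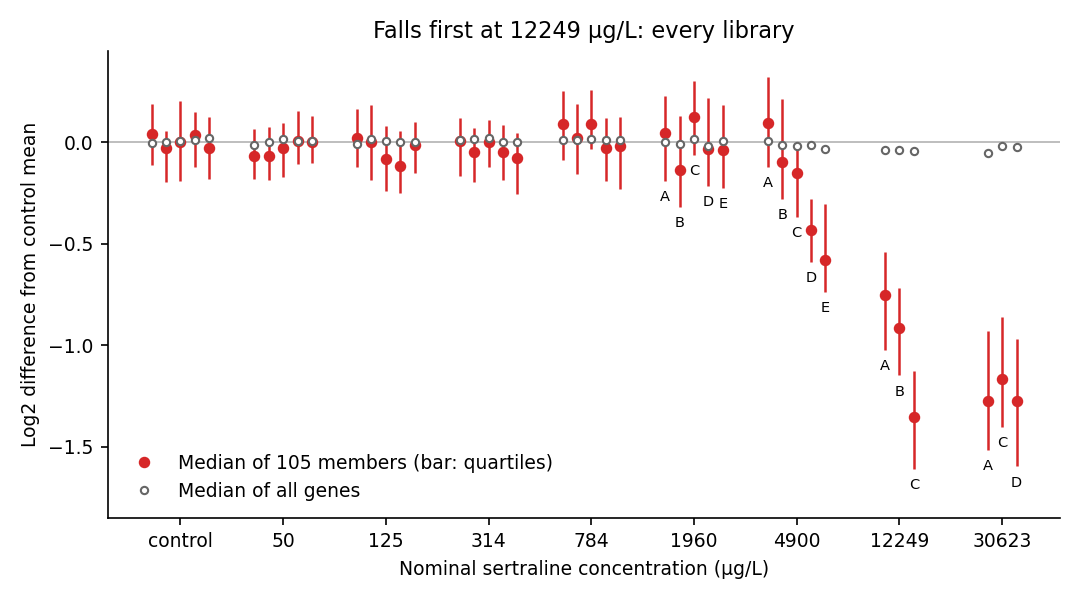
Each red point is the median over the 105 genes in 1 library, as a log2 difference from the control mean (for a control library, from the mean of the other 4), with the quartiles as a bar, and open points are medians over all 7291 genes. Libraries are grouped by nominal concentration in µg/L and lettered from 1960 µg/L up. The 4900 µg/L libraries run from 0.10 in A to -0.58 in E, and library C at 12249 µg/L stands at -1.36.

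The mean near the control at 4900 µg/L was one over libraries that differed widely. The median over the 105 genes was 0.10 in library A, -0.10 in B, -0.15 in C, -0.43 in D and -0.58 in E. Libraries A and B were thus near the control, whose own libraries lay between -0.03 and 0.04, and D and E were below every library of the control and of the groups up to 1960 µg/L. The mean was -0.23 ± 0.27 (SD, n = 5), and the SD of the same median over 5 libraries was 0.03 in the control, 0.06 for 784 and 0.10 for 1960 µg/L. Library E was the lowest of the 5 for 58 of the 105 genes (55.2%), compared with 18.6% of all genes. Library D was the lowest for 26 (24.8%), compared with 16.2% of all genes. Libraries A, B and C were the lowest for 8, 6 and 7 genes, and for 24.9%, 22.2% and 18.2% of all genes. The limit on the mean at 4900 µg/L can shape these counts, so nothing is read from them against all genes. The other 665 genes that were low at both top concentrations had the same order of libraries, with medians of -0.68 in A, -0.81 in B, -0.88 in C, -1.08 in D and -1.19 in E. Library E was the lowest for 37.0% of these 665 and D for 25.4%, so the order of the libraries is not particular to the 105.

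The same libraries separated when genes were counted against the control range. In library E at 4900 µg/L 87 of the 105 genes lay below every control library and in D 78 did, compared with 34.9% and 32.5% of all genes. In library A the count was 22 and in B 31, with 31.2% and 32.6% of all genes below the control range. In library C it was 46 (43.8%), with 32.7% of all genes. In 38 of the 105 genes D and E were both below every control library and neither A nor B was, and 4.66% of all genes had this pattern. All 5 libraries lay below every control library in 2 of the 105 genes, compared with 11.5% of all genes. The limit on the mean at 4900 µg/L removes genes that were low in all 5 libraries and so favours mixed patterns, and nothing is read from either count against its share of all genes. The counts below every control library at 12249 µg/L were 102 in A, 103 in B and 105 in C, where 36.6%, 36.4% and 38.7% of all genes were below. Those at 30623 µg/L were 104 in A, 101 in C and 105 in D, with 38.4%, 38.2% and 39.5% of all genes. All 6 libraries of both top groups were below every control library in 96 of the 105 genes, and in 14.9% of all genes. Since the rule used the top groups, nothing is read from these last counts. In the 9 remaining genes a library overlapped with the control range at 12249 µg/L in 4, at 30623 µg/L in 4 and at both in 1.

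**Figure D3:**
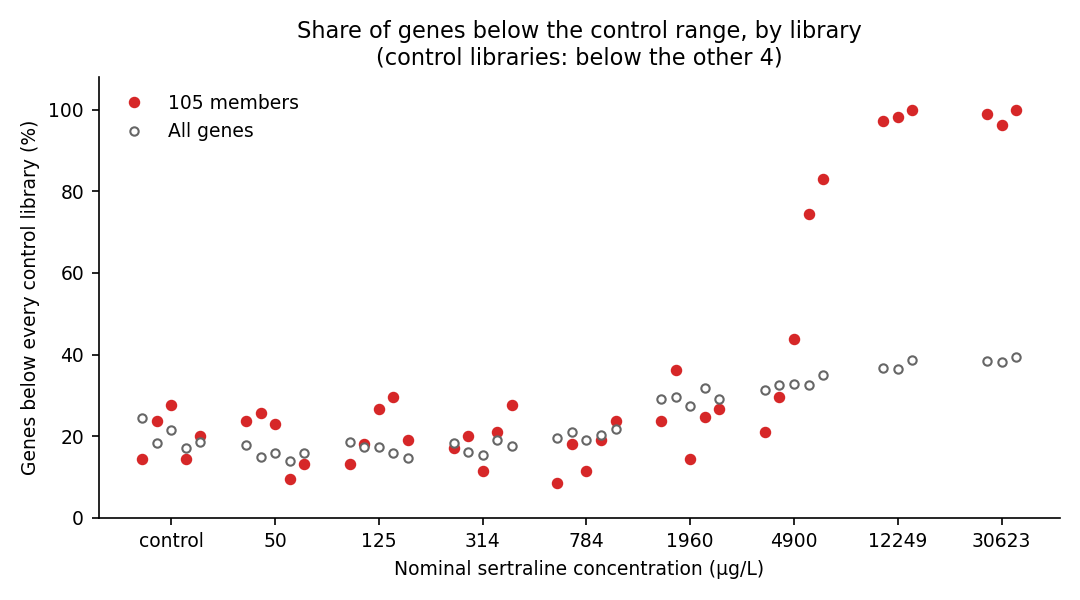
Share of genes (%) whose value lies below every control library, by library and nominal concentration in µg/L, for the 105 genes (red) and all 7291 genes (open); a control library is set against the other 4. Up to 4900 µg/L the red points are farthest above the open ones in libraries D and E at 4900 µg/L, at 74.3% and 82.9%. Smaller gaps occur in both directions, as in D at 125 µg/L (29.5% against 15.9%) and A at 784 µg/L (8.57% against 19.6%). In the top groups the red points are at 96.2% or more.

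The position of each library over all the other genes was set beside these medians. The 7186 genes outside the set gave a line from the 1960 µg/L mean, at 0, to the 12249 µg/L mean, at 1, each library being placed without itself. The 4900 µg/L libraries stood at 0.19 (A), 0.30 (B), 0.54 (C), 0.58 (D) and 0.72 (E). The order of the libraries on this line was the order of their medians over the 105 genes, from 0.10 in A to -0.58 in E. Libraries C and D were close on the line but had medians of -0.15 and -0.43. At 12249 µg/L library C, with the lowest median, was also farthest along, at 0.98, and A and B stood at 0.80 and 0.82. The relation was different for libraries C and D at 30623 µg/L. They stood at 0.56 and 0.59, beside D of 4900 µg/L, but their medians were -1.16 and -1.27. Library A of 30623 µg/L stood at 0.94 with a median of -1.28, near C of 12249 µg/L. Libraries C and D of 30623 µg/L also had the highest median log2 values over all genes of any library, 4.73 and 4.70, with 4.61 in A. The line holds the difference between 1960 and 12249 µg/L only, so a library that departs in other genes can have a middle position. With 5 libraries or fewer in a group no correlation is given, and no measured concentration of a well was used here.

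**Figure D4:**
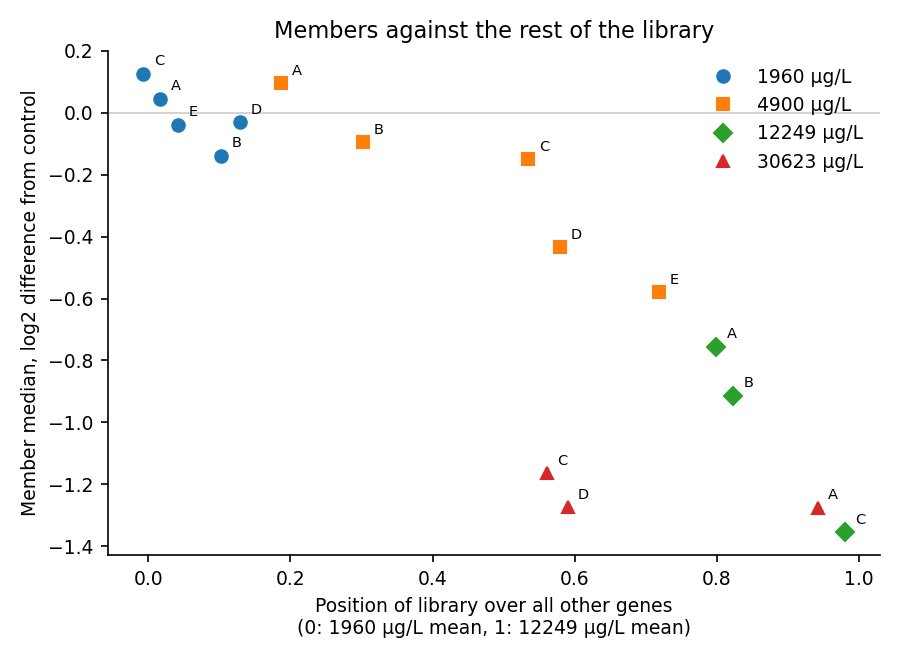
Median over the 105 genes as log2 difference from the control (vertical axis) against the position of the same library over the other 7186 genes (horizontal axis, 0 at the 1960 and 1 at the 12249 µg/L mean), 1 lettered point per library. Within 4900 and within 12249 µg/L lower medians go with higher positions. The 1960 µg/L libraries do not continue this order: B stands at 0.10 with a median of -0.14, and A of 4900 µg/L at 0.19 with 0.10. The 30623 µg/L libraries C and D lie apart at 0.56 and 0.59, and A of 30623 µg/L is at 0.94.

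The rule was also applied without 1 treated library at a time, and that library was then read for the genes so chosen. The control libraries were the same in the choice and in the reading, and genes whose control values happen to be high are favoured by both, so these values are a description and not an independent check. When the rule was applied without library A of 12249 µg/L, 143 genes were chosen, and in A their median was -0.56. Of these 143, 119 (83.2%) lay below every control library in A, compared with 36.6% of all genes. The 118 genes chosen without B had a median of -0.76 in B, and the 58 chosen without C a median of -1.26 in C. The medians in A and in B were therefore shallower than the limit of 0.8 asked of the other libraries, and that in C was deeper. The genes chosen without A, C or D of 30623 µg/L (96, 107 and 99 genes) had medians of -1.24, -1.14 and -1.22 in the library left out. Of them 97.9%, 94.4% and 97.0% were below every control library there, compared with 38.4%, 38.2% and 39.5% of all genes. All genes had medians between -0.05 and -0.02 in these libraries. The 122 genes chosen without library E of 4900 µg/L had a median of -0.65 in E. Of them 31 (25.4%) were lower by at least 0.8 there, compared with 14.9% of all genes. For the genes chosen without D of 4900 µg/L the shares in D were 14.2% and 11.9%. The direction was reversed for the genes chosen without A, B or C of 4900 µg/L. Each of these sets had a smaller share than all genes in the library left out, with 2.56% against 11.4% in A. So the larger share in E did not hold across the 4900 µg/L libraries. The 78 genes chosen without library A had a median of 0.05 in A.

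Below 784 µg/L no member was called different from the control in the fit of all 41 libraries, where at most 0.727% of all genes were. At so small a share a count of 0 among the 105 is uninformative, and nothing is read from it about the set. The question here was whether genes chosen for late falls had already moved at concentrations that the choice did not use. In the limma fit, with p-values adjusted by Benjamini-Hochberg over 7291 genes, 0 of the 105 passed an adjusted p of 0.05 at 314 µg/L, where 0.727% of all genes did. At an unadjusted p under 0.05 there were 3 of the 105, compared with 6.02% of all genes. At 125 µg/L 0 of the 105 passed and 0% of all genes, with 5 of the 105 and 3.31% of all genes at an unadjusted p under 0.05. At 50 µg/L 0 of the 105 passed and 0% of all genes, with 0 of the 105 and 1.25% of all genes unadjusted. Between 314 and 50 µg/L, a comparison free of every library that the rule used, 0 of the 105 passed where 0.398% of all genes did, and 3 of the 105 and 4.57% of all genes passed unadjusted. The differences of the members at 314 µg/L ran from -0.46 to 0.25 with a median standard error of 0.18. Shifts of that size were not detectable in this fit, whose spread also came from the groups from 1960 µg/L up. With the spread taken from the groups below 1960 µg/L alone, 1 of the 105 was lower at 314 µg/L, by 0.37 (limma adjusted p = 0.00639). That fit called 162 of all 7291 genes. With the 2 compared groups alone the same member was also called (limma adjusted p = 0.0131), among 166 of all 7291 genes. Nothing is read from these calls about the set. In the other fits the lowest limma adjusted p of any member at 314 µg/L was between 0.28 and 0.65.

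In single libraries at the low concentrations the median over the 105 genes stayed near that of all genes. At 50 µg/L it lay between -0.07 and 0.00, at 125 µg/L between -0.12 in D and 0.02 in A, and at 314 µg/L between -0.08 in E and 0.01 in A. The control libraries lay between -0.03 and 0.04. The ranges overlapped at each of these concentrations. At 784 µg/L libraries A and C were the highest, both at 0.09, and at 1960 µg/L the libraries ran from -0.14 in B to 0.13 in C.

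The 105 genes were mostly well expressed, a feature that the rule did not use directly. Their control mean was 5.88 at the median, with quartiles 5.12 and 6.64 and a range from 3.29 to 10.3. All 7291 genes had a median of 4.58 with quartiles 3.78 and 5.60. Of the 105, 76 were among the 2431 genes with the highest control level, 26 among the middle 2430 and 3 among the lowest 2430. The genes that met the limits at 784, 1960 and 4900 µg/L were spread evenly, with 999, 1076 and 977 in these classes, so 7.61%, 2.42% and 0.307% of them were members. The mirror rule for rises found 25, 34 and 35 genes in the same classes. Level and direction also went together over all genes: in the highest class the median of all genes was -0.32 at 12249 and -0.64 at 30623 µg/L, and in the lowest class 0.15 and 0.48. The 665 other genes that were low at both top concentrations had a similar level, with a median control mean of 6.12 and 77.9% in the highest class, and the 105 are not set apart by it. Within the 105, the 53 genes with the higher control level had median differences of -1.07 at 12249 and -1.38 at 30623 µg/L, and the other 52 had -0.97 and -0.99.

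Spread within groups was not used directly by the rule. The limit on the mean at 4900 µg/L favours mixed patterns, however, and the choice at 12249 µg/L depended on library C. The SDs of members at 4900 and 12249 µg/L are therefore not independent of the choice. The median SD of a member within the control was 0.19 and that of all genes 0.24 (n = 5 libraries). At 314 µg/L the values were 0.15 and 0.21, and at 1960 µg/L 0.24 and 0.32. The members at 4900 µg/L were as variable as all genes, at 0.37 and 0.36, and at 12249 µg/L at 0.39 and 0.34 (n = 3). The highest concentration had 0.31 for members and 0.42 for all genes. The 665 other genes that were low at both top concentrations had similar SDs at the lower concentrations, with 0.20 in the control, 0.16 at 314 and 0.25 at 1960 µg/L. Their SDs were 0.35 at 4900, 0.29 at 12249 and 0.29 at 30623 µg/L. None of these differences was tested.

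The genes Rsub_02804 and Rsub_12916 are given by library. They are those with the lowest mean difference over both top concentrations among the 96 whose top libraries were all below the control. Both were abundant: the control mean of Rsub_02804 was above that of 93.6% of all genes and the control mean of Rsub_12916 above that of 98.0%.

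Rsub_02804 had log2 values of 7.44, 7.28, 7.32, 7.38 and 7.07 in control libraries A to E, a mean of 7.30 ± 0.14 (SD, n = 5). At 1960 µg/L it was at 7.42, 7.32, 7.44, 7.63 and 7.66, with 3 of the 5 above every control library. At 4900 µg/L libraries A and B were at 7.65 and 7.61, above every control library, C was at 7.05, just below the lowest control library, and D and E were at 6.47 and 6.41. The 5 libraries thus lay on both sides of the control range, with a mean of 7.04 ± 0.59 (SD, n = 5). At 12249 µg/L it was at 5.38 in A, 5.63 in B and 5.44 in C, and at 30623 µg/L at 5.10 in A, 5.55 in C and 5.60 in D. Its level was 3.51-fold lower than the control at 12249 and 3.68-fold lower at 30623 µg/L, and the libraries of the 2 groups overlapped. The gene had therefore reached its low level at 12249 µg/L in all 3 libraries.

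Rsub_12916 was at 8.70, 8.76, 8.80, 8.90 and 8.25 in control libraries A to E, a mean of 8.68 ± 0.25 (SD, n = 5). At 125 and 314 µg/L its means were 8.34 ± 0.22 and 8.35 ± 0.11 (SD, n = 5 each), lower than the control by 0.35 and 0.33, and neither difference passed the threshold (limma adjusted p = 1.00 and 0.73). With the libraries of 314 and 50 µg/L alone in the fit, it was lower at 314 than at 50 µg/L by 0.28 ± 0.08 (SE, limma adjusted p = 0.0401), a call that no other fit made, the lowest limma adjusted p of any member there being between 0.0936 and 1.00. The fit with these 2 groups alone called 149 of all 7291 genes. At 1960 µg/L the mean of Rsub_12916 was 8.90 ± 0.13 (SD, n = 5), 0.22 above the control. At 4900 µg/L it was at 9.09 in A, 9.45 in B, 8.62 in C, 8.28 in D and 8.20 in E, so that A and B were above every control library, C and D within the control range and E below it. At 12249 µg/L it was at 7.47, 7.45 and 7.02 in A, B and C, and at 30623 µg/L at 6.93, 6.46 and 6.76 in A, C and D. All 30623 µg/L libraries were below all 12249 µg/L libraries. Its level was 2.58-fold lower than the control at 12249 and 3.91-fold lower at 30623 µg/L, the deepest fall at 30623 µg/L of the 105. Under quantile scaling the log2 difference at 30623 µg/L was -1.68 in place of -1.97.

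**Figure D5:**
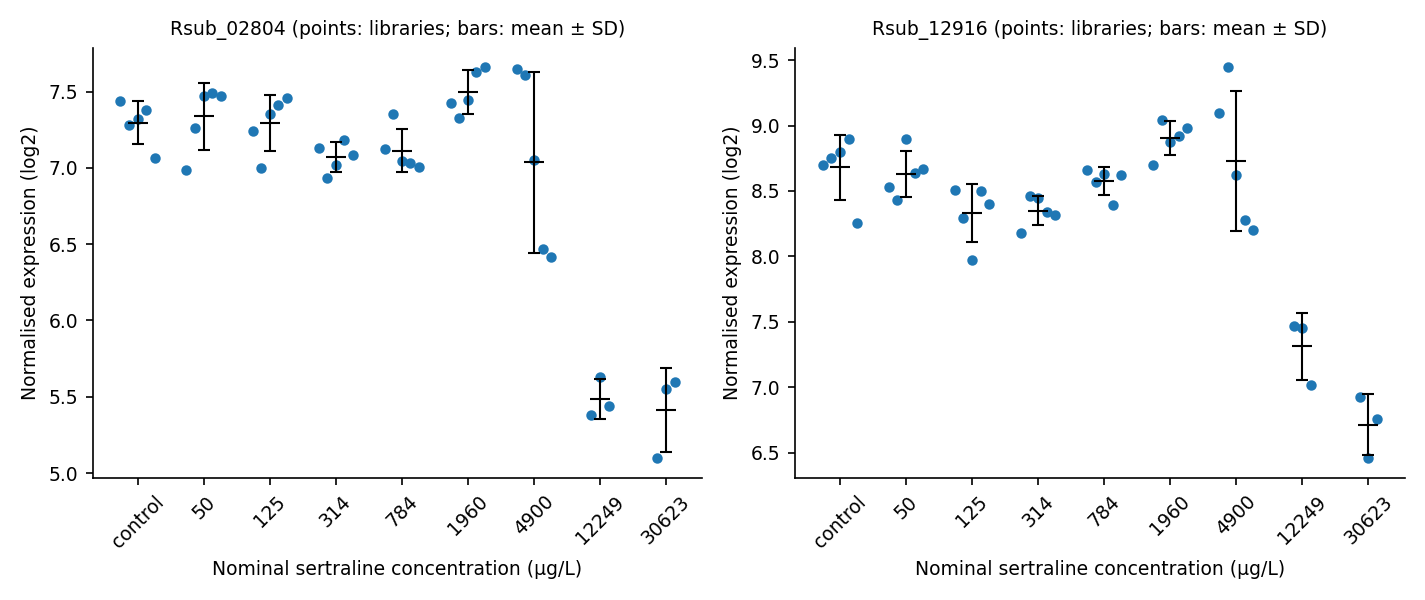
Log2 normalised expression of Rsub_02804 and Rsub_12916 (vertical axes) in each library by nominal concentration in µg/L, with the group mean and SD as bars. At 4900 µg/L libraries A and B of both genes lie above the control and library E below it, and at 12249 and 30623 µg/L every library lies below every control library.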

How the data were processed

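The authors deposited 1 table of normalised values, taken here to be on a log2 scale, with 7291 genes in 41 of the 45 labelled libraries; the other 4 were not analysed here. Per the submitters' processing notes the tools were DESeq2, featureCounts 2.0.6, SAMtools 1.15.1, STAR 2.7.10a, fastp 0.23.2 and bcl2fastq 2.20.0. The sources used here do not give their settings, the genome build, the transform or the filter on genes. If the transform pulls low genes towards their mean, falls of low genes are understated and the rule finds fewer of them. Every fold rests on base 2.

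No pseudocount or filter was used. All 41 libraries entered 1 limma fit (limma 3.58.1, R 4.3.3, a mean per group, 32 residual and 24.4 prior degrees of freedom, trend on intensity), with two-sided tests adjusted by Benjamini-Hochberg over all genes at a threshold of 0.05. The test was tested on simulated data. Summaries used Python 3.11.15, pandas 2.3.3 and matplotlib 3.10.9. The 105 genes, the lists and the tests were chosen with earlier results of these data known. The rule for naming was the 2 lowest mean differences at 12249 and 30623 µg/L among genes whose top libraries were all below the control. The 20 pathway lists drawn up by product name could not be applied without names. Library letters were the replicate labels. The highest correlation between any pair of libraries was 0.975, and none was a copy of another.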

Additional observations from a re-analysis of the deposited data

How the results depend on the processing

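The number of genes that met the rule depended on its limits and on 1 library. It was 105 as given, 45 with a stable limit of 0.3, 40 with a fall limit of -1, and between 58 (without library C of 12249 µg/L) and 143 when single libraries were left out. It was 93 with libraries centred on their medians, 127 under quantile scaling and 88 when genes with a mean under the median were left out. With group medians in place of means it was 95, of which 53 were among the 105. With the replicate letter as a block in a paired fit it was 116, and 104 of the 105 remained. Same-lettered libraries of the control and 314 µg/L did not deviate together (correlations between -0.07 and 0.06 across genes, and 1 of the 5 control libraries correlated best with its own letter). The correlations lay between -0.14 and 0.11 for 125 µg/L. They lay between -0.08 and 0.17 for 50 µg/L, where 2 of the 5 were best with their own letter. The letters were not taken as pairs, and the block changed none of the 4 counts of called members. In 14 of 16 alternatives 0 members were called at 314 µg/L. With the 2 groups compared alone 1 was called, among 166 of all 7291 genes. Without the groups from 1960 µg/L up 1 was called, among 162 of all 7291 genes. Between 314 and 50 µg/L 2 were called with the 2 groups alone, 1 of them Rsub_12916, among 149 of all 7291 genes. In the other 15 alternatives 0 were called. At 50 and 125 µg/L 0 were called in all 16. Fits with fewer groups take their spread from quieter libraries. The median over the 105 genes at 30623 µg/L, -1.14, was -1.23 under quantile scaling and between -1.23 and -1.13 without single libraries; the cause was not tested. At 4900 µg/L the median stayed between -0.32 and -0.09 and at 12249 µg/L between -1.14 and -0.80. For Rsub_12916 the difference at 30623 µg/L was -1.68 under quantile scaling. Depth is unknown, so the precision of single values rests on the 3 or 5 libraries of a group.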
